A study of Mus musculus with 2 samples.

Results

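The genes described are the BMP ligands Bmp2, Bmp4, Bmp6 and Bmp7, the receptors Bmpr1a and Bmpr1b, and the antagonists and modulators Fst, Nog, Bambi and Bmper. They were chosen as named members of the bone morphogenetic protein (BMP) pathway, each symbol matched 1 row of the deposited gene table, and they are 10 of its 56694 genes. The study asked what the Hedgehog transcription factor Gli2 does in skin appendages, and for this it sequenced single cells of back skin from mice at postnatal day 2, with 1 library per genotype. The control library came from floxed littermates without Cre, labelled wild type. The Gli2 EKO library came from K14Cre;Gli2 fl/fl mice, in which the keratin 14 promoter drives Cre in keratinocytes, so that dermal cells carry the floxed gene but are not the targeted cells. Both were on a C57BL/6N background, and the number of mice pooled in each library is not stated in the sources used here. Whole mounts of epidermis were separated with collagenase and DNase and dissociated with trypsin. The 3′ ends of polyadenylated RNA were counted in droplets with unique molecular identifiers (UMIs), and the 2 samples were multiplexed on 1 chip.

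The control library held 71021773 UMIs in 6326 barcodes and the Gli2 EKO library 48866478 UMIs in 4296 barcodes, with medians of 9796.5 and 10054.5 UMIs per barcode, and they shared 0 barcodes. After filtering, 4457 control and 3094 Gli2 EKO cells remained. Levels are given as CPM, the UMIs of a gene in a group of cells per 10⁶ UMIs of all genes in those cells, and a log2 ratio always sets Gli2 EKO over control. Values in parentheses, or after a comma inside them, are exact 95% intervals, which cover nothing but counting error. Since each genotype had 1 library, no difference had a replicate check and no test between genotypes was possible. A ratio is called past the fold where it is at least 1.5-fold either way and rests on at least 50 UMIs over both libraries.

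The label gives the tissue as epidermis, but 1133 control cells (25.4%) and 792 Gli2 EKO cells (25.6%) were not keratinocytes. Ratios are given for 3 compartments. The interfollicular epidermis (IFE) held 568 control and 867 Gli2 EKO cells, the hair follicle, which takes in all other keratinocytes, 2756 and 1435, and the dermal fibroblasts, dermal papilla-like cells included, 742 and 586. The remaining 391 control and 206 Gli2 EKO cells, a mixture of small classes, are described by class only. In their sum Fst (−2.39, −3.04 to −1.81) and Bmpr1a (−0.78, −1.04 to −0.52) were past the fold downwards, and no share of all genes was counted for it. Schwann-like cells, 25 in control and 5 in Gli2 EKO, held 198 of the 259 control and 10 of the 26 Gli2 EKO UMIs of Fst in this sum. All member genes and the other pathway genes were kept out of the genes used for clustering, so no class was made by a gene compared in it. Clusters without a name held 20.1% of control and 15.9% of Gli2 EKO cells as keratinocytes, which are counted in the follicle, with Tagln among the leading genes of 3 of their 4 clusters, and 2.45% and 1.87% as other cells, which are in none of the 3.

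Gli2 UMIs were not lower in Gli2 EKO keratinocytes. They made 36.0 CPM in control against 68.0 CPM in Gli2 EKO cells of the IFE, 98.7 and 99.4 CPM in the follicle, and 229 and 204 CPM in dermal fibroblasts. The assay counts the 3′ end of the transcript and the deleted exons are not stated, so these counts do not check the genotype labels. The study measured Gli2 mRNA separately, by qRT-PCR in back skin epidermis of Gli2 EKO mice and control littermates. Both libraries carried transcripts of the Y chromosome, with Ddx3y at 69.6 and 61.1 CPM, and Xist was at 0.186 and 0.145 CPM, so they did not differ in sex by these genes.

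BMPs are secreted ligands of the TGF-beta superfamily that bind pairs of type I and type II serine/threonine kinase receptors, which phosphorylate SMAD proteins that enter the nucleus and turn on genes such as the Id family. Secreted antagonists bind the ligands outside the cell and keep them from their receptors. In skin, BMP signals restrain the formation and growth of hair follicles and are needed for the differentiation of hair shaft and inner root sheath, while noggin from the mesenchyme opens the way for follicle induction.

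Members that were past the fold in these compartments were mostly lower in Gli2 EKO cells. In the IFE, Bmp4 and Bambi were lower. In the follicle, Bmp6, Bambi and Bmper were lower and the receptor gene Bmpr1b higher, the last in large part through 1 unnamed cluster of keratinocytes. In dermal fibroblasts, Bmp6, Nog and Bambi were lower. The antagonist Fst was past the fold in the sum of none of these compartments but moved in opposite directions in its classes, with 39.9 CPM in control against 251 CPM in Gli2 EKO matrix-like cells.

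Set against all genes, 0 of the 7 members with at least 50 UMIs in the IFE were past the fold upwards, where 3.1% of 11959 genes were, and 2 were past it downwards, where 5.59% of genes were. In the follicle 1 of 9 members was past the fold upwards, against 3.86% of 14597 genes, and 3 downwards, against 5.83%. Among dermal fibroblasts 0 of 10 were past it upwards, against 3.14% of 12078 genes, and 3 downwards, against 4.6%. The median log2 ratio of the members was −0.17 in the IFE, −0.34 in the follicle and −0.40 in dermal fibroblasts, beside −0.03, −0.07 and −0.01 for all genes. The members are few, so these counts describe them and are no test.

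**Figure D1:**
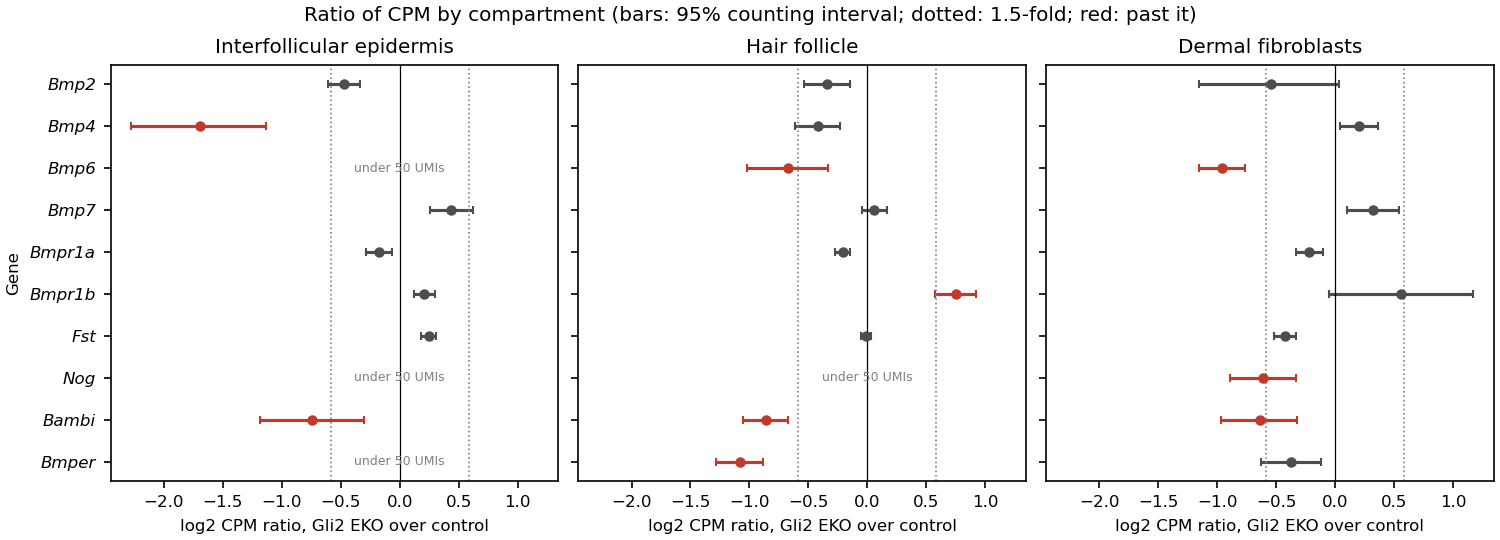
Log2 ratio of CPM, Gli2 EKO over control, of each member (vertical axis) in the 3 compartments; points are the ratios of 1 library per genotype, bars exact 95% counting intervals, dotted lines the 1.5-fold limits, and red points are past them. Bmp4 in the IFE (−1.69), Bmper in the follicle (−1.08) and Bmp6 in dermal fibroblasts (−0.96) lie farthest below 0.

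The follicle values carry the make-up of the follicle cells as well as the levels within them. Unnamed keratinocytes were its largest part, 32.4% of control and 34.4% of Gli2 EKO follicle cells. Matrix-like cells were 13.4% of control and 10.5% of Gli2 EKO follicle cells, inner root sheath-like cells 11.9% and 9.13%, and hair shaft/Foxq1 lineage-like cells 8.13% and 6.06%. With the classes weighted to their control shares, the follicle log2 ratio of Bambi moved from −0.86 to −0.40, that of Bmper from −1.08 to −0.37 and that of Bmp6 from −0.68 to −0.27. None of these 3 then passed the fold, and only Bmpr1b did, at 0.62. Levels within classes are therefore given for each member.

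**Figure D2:**
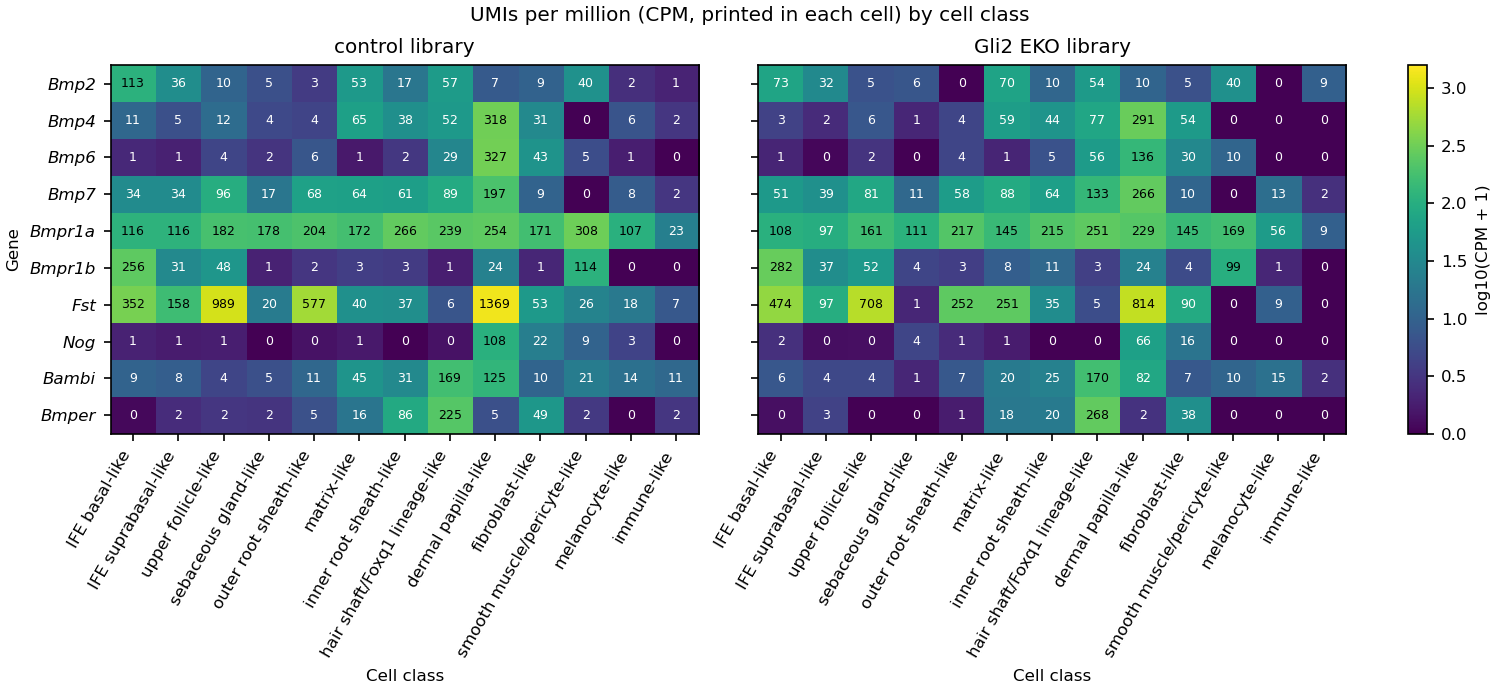
CPM of each member (rows) in 13 of the named cell classes (columns), for the control library on the left and the Gli2 EKO library on the right; colour gives log10(CPM + 1) and the CPM is printed in each cell, rounded. Dermal papilla-like cells hold the highest Bmp4, Fst and Nog of these classes in both libraries, and IFE basal-like cells the highest Bmpr1b.

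Among the ligands, Bmp2 (ENSMUSG00000027358, chromosome 2, 133394079 to 133404816, plus strand of GRCm39) was a gene of the epidermis. Over both libraries it was highest in IFE basal-like cells at 89.5 CPM (84.7 to 94.5), which held 44.5% of its 2900 UMIs. Matrix-like cells followed at 58.1 CPM and hair shaft/Foxq1 lineage-like cells at 56.0 CPM, and the intervals of these 2 overlapped. In IFE basal-like cells Bmp2 gave 113 CPM (104 to 122) in control against 73.4 CPM (67.8 to 79.4) in Gli2 EKO cells. The intervals lay apart and the log2 ratio was −0.62 (−0.78 to −0.46), although it ranged from −0.63 to −0.37 over the processing alternatives and was then not always past the fold. Matrix-like cells went the other way without passing the fold, from 52.8 to 70.4 CPM, a log2 ratio of 0.41 (0.15 to 0.68). Upper follicle-like cells held little Bmp2, 9.62 CPM in control against 5.45 CPM in Gli2 EKO cells, past the fold at −0.82 (−1.48 to −0.20). Of the 8 classes with at least 50 UMIs of Bmp2, 5 were past the fold downwards and 0 upwards. They included fibroblast-like cells (−0.79, −1.50 to −0.13), inner root sheath-like cells (−0.73, −1.66 to 0.10) and unnamed keratinocytes (−1.04, −1.66 to −0.47). The upper follicle-like ratio was −0.57 with the pathway genes kept for clustering, and the fibroblast-like ratio 0.06 without doublet removal.

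Bmp4 (ENSMUSG00000021835, chromosome 14, 46620250 to 46636745, minus strand), a ligand made by dermal papilla and follicle, led in dermal papilla-like cells with 307 CPM (286 to 329), far above matrix-like cells at 63.4 CPM and hair shaft/Foxq1 lineage-like cells at 57.4 CPM, whose intervals overlapped. Its level in dermal papilla-like cells was 318 CPM in control against 291 CPM in Gli2 EKO cells, for a log2 ratio of −0.12 (−0.34 to 0.09) whose interval held 0. In the IFE the gene was low, with 90 UMIs or 8.12 CPM in control and 38 UMIs or 2.51 CPM in Gli2 EKO cells. The IFE log2 ratio of −1.69 (−2.28 to −1.13) ranged from −1.76 to −1.36 over the alternatives. Markers of follicle lineages moved both ways in the same IFE cells. Krt25 fell from 106 to 18.9 CPM, Krt35 from 51.8 to 6.87 CPM, Krt23 from 51.5 to 3.57 CPM and Lhx2 from 8.03 to 1.78 CPM. Lef1 rose from 59.1 to 109 CPM, Krt75 from 2.34 to 24.6 CPM and Edar from 3.52 to 6.81 CPM. The matrix marker list summed from 113 to 216 CPM in the larger IFE basal-like cluster and from 83.5 to 195 CPM in the smaller. The part of follicle transcripts or cells in the IFE ratio of Bmp4 was not tested. Fibroblast-like cells showed the opposite, 30.9 CPM in control against 53.8 CPM in Gli2 EKO cells, with a log2 ratio of 0.80 (0.54 to 1.06). Without doublet removal that ratio was 0.44 and no longer past the fold. The fibroblast-like cluster led by Lum and Fgfr4 had the highest Bmp4 of these clusters, 129.5 and 174 CPM, which was not past the fold (0.43, 0.12 to 0.74), and it held 120 of 550 control but 115 of 432 Gli2 EKO cells of the class. The class ratio thus carries a change in make-up as well. The cluster led by Clec3b and Ly6a had 13.7 and 10.3 CPM on 30 and 15 UMIs, and the proliferating cluster with Tnmd and Top2a among its leading genes went from 17.4 to 46.7 CPM on 23 and 50 UMIs.

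Bmp6 (ENSMUSG00000039004, chromosome 13, 38529065 to 38684280, plus strand) had the lowest ratio of the members in dermal fibroblasts, 92.5 CPM against 47.5 CPM. Dermal papilla-like cells held 38.8% of its UMIs, and their level fell from 327 CPM (299 to 356) in control to 136 CPM (114 to 159.9) in Gli2 EKO cells, for a log2 ratio of −1.27. Over the alternatives this ratio ranged from −1.28 to −1.20. Hair shaft/Foxq1 lineage-like cells went from 28.5 CPM on 66 UMIs to 55.5 CPM on 36 UMIs, a log2 ratio of 0.96 (0.33 to 1.57) that was just under the fold, at 0.57, with a stricter mitochondrial limit. This class joins a pair of lineages whose markers moved apart, as hair shaft markers summed from 3080.1 to 10468 CPM and Foxq1 lineage markers from 2825 to 2139.7 CPM, so the ratio is not read as a change within either. The follicle ratio of −0.68 (−1.02 to −0.34) came mostly from the unnamed keratinocytes, with 14.9 CPM in control against 5.72 CPM in Gli2 EKO cells, and was −0.05 without them. In the IFE Bmp6 had 13 and 11 UMIs and was too low to compare.

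Bmp7 (ENSMUSG00000008999, chromosome 2, 172709805 to 172782410, minus strand) was spread more widely than the other ligands. It stood at 225 CPM (207 to 244) in dermal papilla-like cells, 98.6 CPM in hair shaft/Foxq1 lineage-like cells and 90.2 CPM in upper follicle-like cells, the last 2 with overlapping intervals, and at 44.1 CPM in IFE basal-like cells. Fibroblast-like cells held 9.62 CPM, so within the dermis the gene marked the papilla. Of its 10 classes with at least 50 UMIs only 2 were below 0, fewer than for the other ligands. IFE basal-like cells had 33.9 CPM in control against 51.2 CPM in Gli2 EKO cells, for a log2 ratio of 0.60 (0.35 to 0.84). That ratio did not last, as it was 0.06 without doublet removal and 0.08 with the pathway genes kept for clustering.

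Promoters are shown for the ligands Bmp4 and Bmp6 and the modulator Bmper. These members were past the fold in a compartment, were lower there in Gli2 EKO cells and had a window read here. Windows came from the RefSeq table of promoter windows (build GRCm38.p6). Windows of 300 bases around the annotated start were read for 5 of the 10 members. No window was read for Bmp2, Bmp7, Fst, Nog and Bambi, so their promoters were not searched. For Bambi this does not show that the table lacks an entry. Nog and Bambi, also past the fold and lower in a compartment, are therefore not shown. Sequences run 5′ to 3′ on the gene's strand, and capitals mark the GC box GGGCGG or its reverse complement, the site known for Sp1-type factors.
Bmp4, chr14:46390620-46390919, minus strand: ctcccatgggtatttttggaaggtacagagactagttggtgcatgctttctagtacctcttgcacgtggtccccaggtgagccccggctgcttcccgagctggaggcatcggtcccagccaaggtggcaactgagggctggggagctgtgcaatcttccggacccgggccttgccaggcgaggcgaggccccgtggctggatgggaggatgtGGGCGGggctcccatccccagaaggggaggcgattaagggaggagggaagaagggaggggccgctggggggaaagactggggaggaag
Bmp6, chr13:38345466-38345765, plus strand: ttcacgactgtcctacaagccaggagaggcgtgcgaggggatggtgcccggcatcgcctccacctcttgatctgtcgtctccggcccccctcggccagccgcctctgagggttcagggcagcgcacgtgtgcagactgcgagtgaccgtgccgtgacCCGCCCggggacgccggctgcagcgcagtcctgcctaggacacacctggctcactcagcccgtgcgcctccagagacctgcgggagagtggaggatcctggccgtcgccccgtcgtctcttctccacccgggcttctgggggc
Bmper, chr9:23222826-23223125, plus strand: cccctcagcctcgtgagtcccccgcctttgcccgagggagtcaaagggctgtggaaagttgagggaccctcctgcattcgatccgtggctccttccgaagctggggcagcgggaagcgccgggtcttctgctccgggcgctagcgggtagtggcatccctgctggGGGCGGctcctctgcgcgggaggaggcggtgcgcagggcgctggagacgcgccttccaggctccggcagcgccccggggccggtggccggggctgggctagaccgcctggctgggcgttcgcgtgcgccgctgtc
Each of the 3 holds the GC box 1 time. Of all 7 windows of members 4 hold it, that of Bmpr1a with 4 matches among them, and the windows of Bmpr1b have 0. At least 1 match is in 35.7% of the 32851 windows in the table. The GC content of the 3 windows shown was 64.0%, 69.3% and 72.7%. The GLI motif GACCACCCA, searched on both strands, was in 0 of the 7 windows of members and in 0.253% of all windows, and its shorter core TGGGTGG, which the longer motif holds on the opposite strand, in 0 of them and in 9.30% of all. GGCGCC, known from BMP-responsive elements, was in 1 of them (Bmpr1a) and 11.9% of all, and TATAAA in 1 (Bmpr1b) and 13.6%. Where there is no match, this says only that these letters are not in these windows.

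Of the receptors, Bmpr1a (ENSMUSG00000021796, chromosome 14, 34132687 to 34225379, minus strand), a type I receptor needed for hair differentiation, was found in nearly all classes. Over both libraries its highest levels were 263 CPM in smooth muscle/pericyte-like and 251 CPM in inner root sheath-like cells, with overlapping intervals down to hair shaft/Foxq1 lineage-like cells at 242 CPM. The lowest were 17.5 CPM in immune-like and 5.67 CPM in endothelial-like cells. The order differed by library. Smooth muscle/pericyte-like cells led in control at 308 CPM but were at 169 CPM in Gli2 EKO, where hair shaft/Foxq1 lineage-like cells led at 251 CPM. IFE basal-like cells, at 111 CPM over both libraries, held less Bmpr1a than any follicle class. It was a little lower in Gli2 EKO cells in 12 of 15 classes. Control and Gli2 EKO cells had 116 and 103 CPM in the IFE, 198 and 171 CPM in the follicle and 186 and 159 CPM in dermal fibroblasts. All these differences were under the fold, which was passed downwards in 3 small classes, melanocyte-like (−0.93, −1.45 to −0.44), smooth muscle/pericyte-like (−0.86, −1.45 to −0.31) and sebaceous gland-like cells (−0.69, −1.07 to −0.31). The smooth muscle/pericyte-like class holds a pair of clusters, and in the main one, led by Rgs5 and Myh11, Bmpr1a was not past the fold (−0.54, −1.25 to 0.13). The other, with 535 CPM in control, held 14 of 40 control but 3 of 23 Gli2 EKO cells.

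Bmpr1b (ENSMUSG00000052430, chromosome 3, 141542897 to 141875323, minus strand), the other type I receptor, was by contrast a gene of the basal epidermis. IFE basal-like cells, at 271 CPM (263 to 279.8), held 70.0% of its UMIs. Smooth muscle/pericyte-like cells followed at 109 CPM, upper follicle-like cells at 49.2 CPM and IFE suprabasal-like cells at 34.3 CPM, each with an interval apart from the next. Matrix, inner root sheath and hair shaft classes were at 5.02 CPM or less. Within IFE basal-like cells the libraries were alike, with 256 CPM in control against 282 CPM in Gli2 EKO cells. The follicle log2 ratio of 0.75 (0.58 to 0.92) came in large part from 1 unnamed cluster, led by Sox6 and Cdh13, where Bmpr1b went from 91.8 CPM on 73 UMIs to 344 CPM on 140 UMIs. This cluster is counted in the follicle only because all keratinocytes outside the IFE classes are. Its leading genes Sox6 and Atf3 were also among those of the larger IFE basal-like cluster. Whether its cells are follicle cells was not tested. The call did not hold in all runs: the follicle ratio was 0.54 without the unnamed keratinocytes, 0.49 at a clustering resolution of 0.3 and 0.51 with a mitochondrial limit of 10%. Upper follicle-like cells showed 47.6 and 51.6 CPM.

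Follistatin, encoded by Fst (ENSMUSG00000021765, chromosome 13, 114588731 to 114595521, minus strand), binds activins and, more weakly, BMPs. With 28841 UMIs it had the most UMIs of the members. It was highest in dermal papilla-like cells at 1148 CPM (1107 to 1190.1) and then in upper follicle-like cells at 877 CPM (861 to 893), which held more of its UMIs than any other class. Schwann-like cells at 566 CPM, outer root sheath-like cells at 454 CPM and IFE basal-like cells at 424 CPM came next, the last 2 with overlapping intervals, and hair shaft/Foxq1 lineage-like cells were low at 5.74 CPM. The sum over the follicle hid what its classes did, as it was 324 CPM in control against 321 CPM in Gli2 EKO cells.

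In matrix-like cells, the proliferating cells above the papilla, Fst rose from 247 UMIs or 39.9 CPM (35.1 to 45.2) in control to 660 UMIs or 251 CPM (232 to 271) in Gli2 EKO cells. The log2 ratio was 2.65 (2.44 to 2.87), the highest of any member in any class with at least 50 UMIs, and it ranged from 2.31 to 2.89 over the alternatives. The UMIs were unevenly spread, as the 10 highest cells held 38.9% of them in control and 50.2% in Gli2 EKO cells. Without those cells the levels were 25.4 and 137 CPM, so the difference did not rest on them. In matrix-like cells with a UMI of Shh, the Hedgehog ligand of the matrix, Fst was at 22.6 CPM in 95 control cells against 267 CPM in 60 of Gli2 EKO.

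Other genes moved with Fst in the matrix-like cells. All 9 IFE basal markers were found in both libraries and summed to 1610.4 CPM in control against 3718 CPM in Gli2 EKO cells, with Krt5 the most abundant in control and Krt14, at 1442 CPM, in Gli2 EKO cells. Companion layer markers, mostly Krt17, summed to 428 CPM with 5 of 5 found and to 1151 CPM with Krt6b at 0. The 8 outer root sheath markers summed to 334 and 437 CPM, the 6 upper follicle markers to 154 and 178 CPM, and the 7 matrix markers to 1069.7 and 854 CPM. Sostdc1, another secreted BMP antagonist, went from 22.9 to 157 CPM, a log2 ratio of 2.78 (2.50 to 3.06), and the BMP target Id1 from 163 to 90.5 CPM. Whether the cluster holds the same kinds of cells in both libraries was not tested.

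In 6 of its 10 classes with at least 50 UMIs Fst was lower in Gli2 EKO cells. Dermal papilla-like cells had 1369 CPM in control against 814 CPM in Gli2 EKO cells, for a log2 ratio of −0.75 (−0.87 to −0.63) that stayed past the fold in all alternatives. Outer root sheath-like cells went from 577 to 252 CPM, but this ratio of −1.19 (−1.37 to −1.02) was −0.10 at a clustering resolution of 0.8. Upper follicle-like cells, the main source by UMIs, had 989 and 708 CPM, a log2 ratio of −0.48 (−0.54 to −0.43) under the fold. The ratio in IFE suprabasal-like cells was −0.71 (−0.86 to −0.56), from 158 to 96.9 CPM, and was −0.47, under the fold, with the automatic doublet threshold. Late differentiation markers moved in the IFE at the same time, Lor from 2338 to 119 CPM and Flg from 1793 to 636 CPM, and the part of differentiation stage in the ratio was not tested. In Schwann-like cells it was −1.22 (−2.30 to −0.31) on 10 UMIs in 5 Gli2 EKO cells, and −0.10 without doublet removal. IFE basal-like cells had 352 and 474 CPM, higher in Gli2 EKO but under the fold. Fibroblast-like cells went the other way, from 53.4 to 90.3 CPM, with a log2 ratio of 0.76 (0.56 to 0.96) and a range of 0.67 to 0.76. As for Bmp4, part of this is make-up, since the cluster led by Lum and Fgfr4, with 143 and 217 CPM (0.61, 0.32 to 0.90), was a larger part of the Gli2 EKO cells. The proliferating cluster with Tnmd and Top2a among its leading genes was just past the fold, from 38.5 to 57.9 CPM on 51 and 62 UMIs (0.59, 0.03 to 1.15). The cluster led by Clec3b and Ly6a was not past the fold (0.44, 0.09 to 0.79). The IFE ratio of 0.24 (0.18 to 0.31) turned to −0.21 when the pathway genes were kept for clustering, so no direction is read from it.

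**Figure D3:**
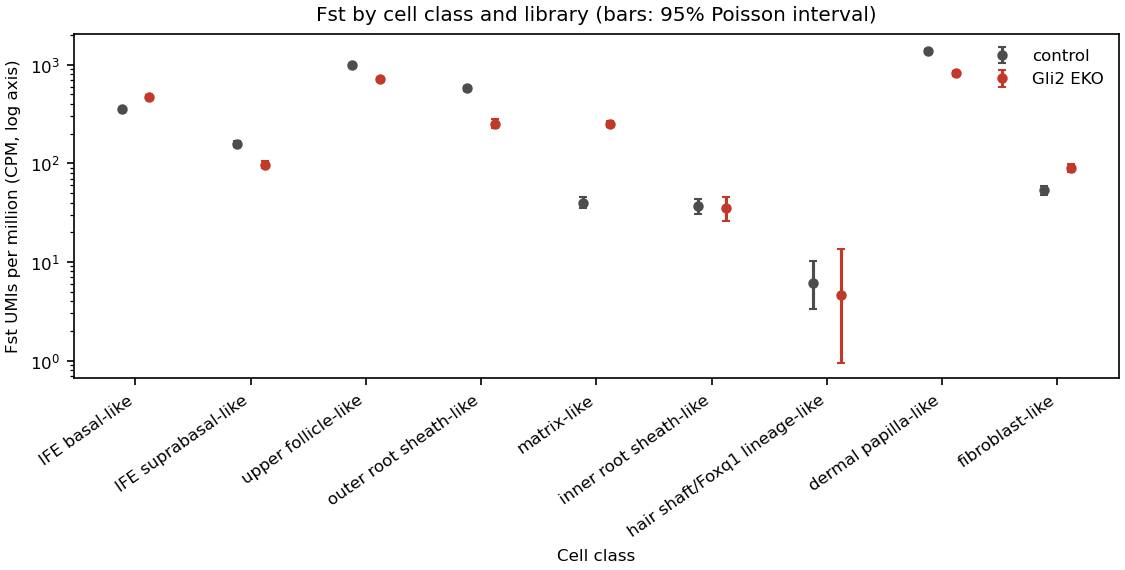
Fst in CPM (vertical log axis) in 9 cell classes for the control library (grey) and the Gli2 EKO library (red), with exact 95% Poisson intervals as bars. Matrix-like cells stand at 39.9 CPM in control against 251 CPM in Gli2 EKO cells, while dermal papilla-like, upper follicle-like and outer root sheath-like cells are lower in Gli2 EKO.

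Noggin, the BMP antagonist encoded by Nog (ENSMUSG00000048616, chromosome 11, 89191464 to 89193158, minus strand), was a gene of the dermis. Of its 574 UMIs, 84.8% lay in dermal fibroblasts, with 91.2 CPM (80.0 to 104) in dermal papilla-like and 19.9 CPM (17.5 to 22.5) in fibroblast-like cells, and it had 30 and 15 UMIs in the whole follicle. Dermal papilla-like cells had 169 UMIs or 108 CPM in control and 68 UMIs or 65.8 CPM in Gli2 EKO cells. The log2 ratio was −0.71 (−1.14 to −0.30), and −0.55, not past the fold, with the automatic doublet threshold. Over all dermal fibroblasts the ratio of −0.61 (−0.89 to −0.33) was close to the fold and fell under it, to −0.43, with that threshold.

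Bambi (ENSMUSG00000024232, chromosome 18, 3507871 to 3516404, plus strand) encodes a decoy receptor without a kinase domain that is itself induced by BMP. Hair shaft/Foxq1 lineage-like cells led with 169 CPM (155 to 185), then dermal papilla-like cells with 108 and endothelial-like cells with 70.9 CPM, the last 2 with overlapping intervals, and matrix-like cells with 37.3 CPM. The leading class had 169 CPM in control against 169.7 CPM in Gli2 EKO cells (0.01, −0.31 to 0.31), but since the markers of its lineages moved apart, as given for Bmp6, this is not read as a level that held. Matrix-like cells differed, with 44.8 CPM (39.6 to 50.3) in control against 19.8 CPM (14.8 to 25.9) in Gli2 EKO cells. This log2 ratio of −1.18 (−1.63 to −0.75) ranged from −1.38 to −1.04 over the alternatives, opposite to that of Fst in the same cells. In the IFE Bambi was low, 8.84 CPM in control against 5.29 CPM in Gli2 EKO cells, with a log2 ratio of −0.74 (−1.19 to −0.30). Marker lists of follicle classes rich in Bambi moved both ways here too. In IFE suprabasal-like cells the hair shaft list summed from 206 to 35.1 CPM (Krt84 at 0 in both), the Foxq1 lineage list from 153 to 49.0 CPM and the matrix list from 72.1 to 41.9 CPM. In the larger IFE basal-like cluster these lists went from 23.4 to 13.3, 59.7 to 85.7 and 113 to 216 CPM. In the smaller they went from 27.5 to 19.6, 83.9 to 96.8 and 83.5 to 195 CPM. The cause of the IFE ratio of Bambi was not tested. In dermal fibroblasts the ratio was −0.64 (−0.96 to −0.32), and −0.53, under the fold, with the automatic doublet threshold.

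Bmper (ENSMUSG00000031963, chromosome 9, 23134325 to 23396509, plus strand) encodes a secreted, chordin-like protein that binds BMPs. Among keratinocytes it marked the inner layers of the follicle, with 234 CPM (217 to 252) in hair shaft/Foxq1 lineage-like and 66.5 CPM (59.5 to 74.1) in inner root sheath-like cells, while fibroblast-like cells had 44.4 CPM, mostly from the cluster led by Clec3b and Ly6a (158 CPM in control against 131 CPM in Gli2 EKO cells). Inner root sheath-like cells went from 302 UMIs or 85.9 CPM in control to 29 UMIs or 19.8 CPM in Gli2 EKO cells, for a log2 ratio of −2.12 (−2.72 to −1.56), with a range of −2.14 to −1.65. The class differed between the libraries in markers of other cells as well. Its inner root sheath markers summed from 7373 to 6968 CPM, but hair shaft markers from 71.4 to 482 CPM, upper follicle markers from 260.4 to 653 CPM and companion layer markers from 1755 to 2814 CPM, and a change in the cells of the class was not tested. Only 58 control and 16 Gli2 EKO cells of this class had a Bmper UMI, and without the 10 highest cells of each library the levels were 35.2 and 4.81 CPM. Hair shaft/Foxq1 lineage-like cells had 225 and 268 CPM and were not past the fold. The lowest ratio of any member in a class with at least 50 UMIs was that of Bmper in the unnamed keratinocytes, from 101 UMIs or 8.82 CPM to 6 UMIs or 1.07 CPM (−3.04, −4.52 to −1.87).

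The dermal papilla-like cells deserve a closer description because they held the highest Bmp4, Bmp6, Bmp7, Fst and Nog of all classes with both libraries pooled. In Gli2 EKO alone, endothelial-like cells had slightly more Bmp6, 144 CPM on 11 UMIs in 7 cells, against 136 CPM in dermal papilla-like cells. They formed a pair of clusters. One was led by Clstn2 and Corin and held 82 control and 96 Gli2 EKO cells, and the other was led by Dcc and Crabp1 and held 110 and 58, so that different clusters held most of the class in the 2 libraries. All 8 dermal papilla markers were found in both clusters of both libraries, and summed to 4475 and 3794 CPM in the first and 6645 and 5448 CPM in the second.

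Within the cluster led by Dcc, Bmp6 went from 436 CPM in control to 176 CPM in Gli2 EKO cells (−1.31, −1.69 to −0.95) and Bmp4 from 287 to 186 CPM (−0.63, −1.02 to −0.26). Within the cluster led by Clstn2, Bmp6 (145 and 109 CPM) and Bmp4 (368 and 361 CPM) were not past the fold. Nog did the reverse and was lower in the cluster led by Clstn2, from 81.8 to 35.3 CPM on 48 and 22 UMIs (−1.21, −2.01 to −0.46), but not in the other, at 124 and 112 CPM. The difference in Bambi over the whole class, a log2 ratio of −0.61 (−0.99 to −0.23), was not seen in the cluster that holds most of its UMIs, with 189 and 198 CPM (0.06, −0.33 to 0.45). Fst was past the fold in the cluster led by Clstn2, from 859 to 553 CPM (−0.63, −0.84 to −0.43), but not in the cluster led by Dcc, which holds most of its UMIs in the class, from 1675 to 1211 CPM (−0.47, −0.62 to −0.32). Bambi had 185 and 81 UMIs in the cluster led by Dcc, which held fewer of the Gli2 EKO cells, and 18.7 and 6.41 CPM in the other.

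**Figure D4:**
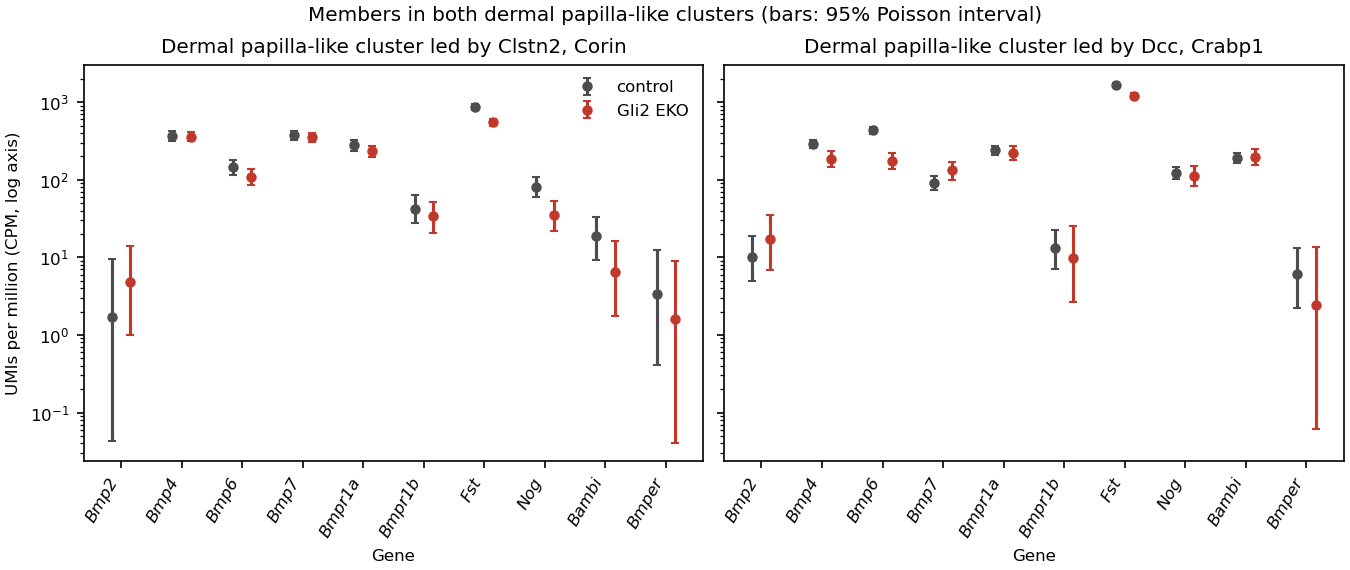
CPM (vertical log axis) of each member in both dermal papilla-like clusters, control library in grey and Gli2 EKO library in red, with exact 95% Poisson intervals as bars. In the cluster led by Dcc and Crabp1, Bmp6 stands at 436 CPM in control against 176 CPM in Gli2 EKO cells, while Bambi is at 189 and 198 CPM.

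Shares of cells with a UMI were compared after thinning each cell to 2000 UMIs, with immune-like cells as background. Bmp6 was found in 32.3% (25.7 to 39.4%) of 192 control and 18.2% (12.4 to 25.2%) of 154 Gli2 EKO dermal papilla-like cells, with 0 cells left out and median depths of 7853 and 6504 UMIs, and unthinned in 57.3% and 36.4%. Fst was found in 4.92% (2.94 to 7.66%) of 366 control matrix-like cells, 2 left out, and in 26.7% (19.8 to 34.5%) of 150 Gli2 EKO cells, at median depths of 17142 and 16042 UMIs, and unthinned in 23.9% and 46.7%. For both genes the shares differed in the direction of the CPM. After thinning, neither gene was found in 89 control or 45 Gli2 EKO immune-like cells, 1 left out (unthinned, Fst was in 6.74% of control ones), with upper limits of 4.06% and 7.87% on the thinned share, at median depths of 10048 and 12687 UMIs. Nog was in 19.3% (13.9 to 25.6%) of control and 10.4% (6.06 to 16.3%) of Gli2 EKO dermal papilla-like cells, intervals that overlapped, and unthinned in 42.2% and 24.0%. Bmpr1b in IFE basal-like cells gave 36.3% (31.2 to 41.6%) and 40.2% (36.1 to 44.4%), and unthinned 85.6% and 88.1%, with no cell left out and 0 immune-like cells positive in either library.

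Of the other 40 genes of the pathway lists, counted without a test and beside the same shares of all genes as the members, 1 of 26 with at least 50 UMIs in the IFE was past the fold upwards, the receptor gene Acvr2b (0.60, 0.04 to 1.19), and 3 were past it downwards, the ligand gene Bmp3 (−1.48, −2.33 to −0.68), the modulator Crim1 (−0.60, −0.71 to −0.50) and the target Id4 (−0.76, −1.12 to −0.41). In the follicle 0 of 29 were past it upwards and 4 downwards, Fstl1, Smad9 and the targets Id1 (−0.74, −0.84 to −0.64) and Atoh8 (−0.84, −1.30 to −0.40). Among dermal fibroblasts 3 of 32 were past it downwards, the ligand gene Gdf10, the target Atoh8 and the antagonist Sostdc1. Sostdc1 had the lowest ratio of these, from 209 CPM in control to 59.1 CPM in Gli2 EKO cells (−1.82, −1.98 to −1.66), and in dermal papilla-like cells it went from 1049 to 266 CPM. Sostdc1 and Fst thus moved the same way in dermal papilla-like and matrix-like cells, but not in fibroblast-like cells, where Sostdc1 went from 30.8 to 17.8 CPM, nor in outer root sheath-like cells, from 594 to 774 CPM.

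The 7 immediate targets, genes that BMP signalling is known to induce, had a median log2 ratio of −0.31 in the IFE (6 with enough UMIs), −0.42 in the follicle and −0.20 in dermal fibroblasts. In dermal papilla-like cells Id1 was at 269.7 CPM in control against 161 CPM in Gli2 EKO cells, Id3 at 408 and 231 CPM and Id4 at 83.1 and 48.4 CPM, all past the fold. The other targets are not given for these cells, and no share of all genes was counted for the class. Over all dermal fibroblasts, 1 of the 7 targets, Atoh8, was past the fold downwards, beside 4.6% of all genes. Fibroblast-like cells had Id1 at 41.3 and 65.7 CPM (0.67, 0.44 to 0.90) and Id4 at 7.97 and 12.4 CPM (0.63, 0.10 to 1.17), while Id3, at 87.9 and 100.3 CPM, was not past the fold. Of the genes induced by tissue dissociation, Fos went from 909 to 650.0 CPM in the IFE, 398 to 269 CPM in the follicle and 399 to 224 CPM in dermal fibroblasts, and Atf3 from 954 to 628, 108 to 84.6 and 41.4 to 18.4 CPM. Jun was lower in Gli2 EKO cells of the IFE (1554 to 1234 CPM) and follicle (542 to 411 CPM) but not in dermal fibroblasts (423 to 452 CPM). These immediate early genes were thus mostly lower, while the heat shock gene Hspa1a was higher in all 3 compartments, from 1274 to 1699.9, 499.7 to 544 and 476 to 858 CPM. Their part in the values was not tested.

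Across the 15 named classes, both libraries pooled, the genes closest to each member in log2(CPM + 10) among 13097 genes were listed as a description, since the classes share libraries and depth. Nog was closest to Slc8a3 (Pearson r = 0.997), Bmpr1b to Stk33, Bambi to the BMP target Atoh8 (0.923) and Fst to Sostdc1 (0.918). Outside dermal papilla-like and fibroblast-like cells Nog reached at most 6.41 CPM in a class, so its r rests mostly on these classes. The ligand genes were closest to Wnt3 for Bmp2 (0.766), Ptpru for Bmp4 (0.917), Hoxd4 for Bmp6 (0.918) and Tfap2c for Bmp7 (0.921). Bmpr1a was closest to Fat1 (0.914) and Bmper to Xpot (0.905). Among the members themselves, Bmp4 and Bmp6 (0.783), Bmp6 and Nog (0.772) and Bmp4 and Bambi (0.763) had the highest r of the 45 pairs.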

How the data were processed

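The authors deposited filtered UMI counts per library, not normalised, from Cell Ranger 9.0.1 (genome GRCm39, annotation GENCODE M30). CPM, log2 ratios and shares were computed here from these counts. Cells were kept with over 1000 and under 8000 genes and under 15% mitochondrial UMIs. Scrublet (scanpy 1.11.5, expected rate 0.06) stood in for the study's doublet caller; the 8% of cells with the highest scores per library were removed, since the automatic threshold marked 261 control and 14 Gli2 EKO cells. Clustering in Seurat 5.3.0 (R 4.3.3) used the study's settings, with 2000 variable genes, 20 principal components, Harmony written anew and resolution 0.5, over all cells and then within keratinocytes; unlike in the study, other cells were kept and clustered too, and pathway genes were left out of the variable genes. A cluster needed for its name 3 or more markers, each in 10% of its cells, and a mean log2 marker score of at least 1.1, unless another class had more markers among its 10 leading genes; rebuilt names may differ from the study's. Intervals are Poisson for CPM, Clopper-Pearson for shares and conditional binomial for ratios, and the calculation was tested on simulated data. Named genes are the members, the pathway genes past the fold, class markers and the closest genes of each member. Members and lists were chosen with earlier results of these data known. The minimum score, the 0.4 limit on marker shares for setting non-keratinocyte clusters aside, the joining of hair shaft and Foxq1 lineage lists, the comparison of member ratios between classes, the matrix-like, stress and sex-linked genes and the values named outside the rule were chosen after seeing the data. Member coordinates were read from GENCODE M39, also on GRCm39, by gene identifier.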

Additional observations from a re-analysis of the deposited data

Results flagged for a closer look

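For 3 members, named cell classes went past the fold in opposite directions between the libraries, each with at least 50 UMIs and an interval that excluded 0. The share of all genes that do so was not counted, so it is not known whether this is unusual. Unnamed keratinocytes are left out of this list, and were at −1.55 (−2.68 to −0.57) for Bmp4 and −1.38 (−1.98 to −0.83) for Bmp6. Bmp4 had a log2 ratio of −1.72 in IFE basal-like and −0.96 in upper follicle-like cells but 0.80 in fibroblast-like cells. Bmp6 was at −1.27 in dermal papilla-like and 0.96 in hair shaft/Foxq1 lineage-like cells. Fst was at 2.65 in matrix-like and 0.76 in fibroblast-like cells, but at −1.19 in outer root sheath-like, −0.75 in dermal papilla-like, −0.71 in IFE suprabasal-like and −1.22 in Schwann-like cells. Under some processing alternatives 5 of these fell under the fold: Bmp4 in fibroblast-like cells (0.44), Bmp6 in hair shaft/Foxq1 lineage-like cells (0.57), a class whose hair shaft and Foxq1 lineage markers moved apart, and Fst in outer root sheath-like (−0.10), Schwann-like (−0.10) and IFE suprabasal-like cells (−0.47). The difference between classes was not tested, since each ratio rests on 1 library per genotype.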

How the results depend on the processing

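Of 362 values of the members' compartment ratios under the alternatives, 330 stayed within the counting interval of the reported value, 32 moved beyond it and 0 of the ratios past the fold changed sign. Some ratios under the fold did change sign. Among them, Bmp2 in dermal fibroblasts went from −0.54 to 0.30 without doublet removal. Bmpr1b went from 0.56 to −0.005 there with dermal papilla-like cells alone. Of 161 values within classes, 142 stayed, 18 moved and 1 changed sign: Bmp2 in fibroblast-like cells went from −0.79 to 0.0561 without doublet removal, and the cause was not tested. The reported numbers of members past the fold were 2 in the IFE, 4 in the follicle and 3 in dermal fibroblasts. A fold of 2 left 1, 1 and 0, by its stricter limit, and a minimum of 20 UMIs gave 4 in the IFE, where more members entered. A mitochondrial limit of 10% left 1 in dermal fibroblasts; the cause was not tested. Weighting the classes to control shares left 1 in the follicle, and leaving out the unnamed keratinocytes, an alternative chosen after seeing the data, left 2. The other 2 alternatives chosen after seeing the data, unnamed fibroblast-marker clusters added to dermal fibroblasts and dermal papilla-like cells alone, changed the counts by less than 1.5 times. Levels in each member's leading class moved beyond their interval in 9 of 70 values, and all 20 shares of cells with a UMI were higher after thinning to 5000 UMIs, as more UMIs per cell were kept. Depth limits Bmp6, Nog and Bmper in the IFE and Nog in the follicle, each under 50 UMIs. No paired analysis was possible because there is 1 library per genotype.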
